A study of Oryza sativa with 216 samples.

Results

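The lines described here are recombinant inbred lines (RILs) of rice, sorted by whether their BGLU25 signal resembled that of Minghui 63 or that of Zhenshan 97. Both varieties are indica rice, and each line goes back to their cross through repeated selfing. The 210 lines were chosen by their measured BGLU25 signal and fell into equally many of Minghui 63 type (50% of the lines) and of Zhenshan 97 type, and they are set beside the other arrays of the series, 3 of Minghui 63 and 3 of Zhenshan 97. All plants were untreated and field grown, and flag leaves were taken on the day the panicle emerged. Each line had 1 array on RNA mixed from both of its plantings, so lines were the replicates of a type, and the spread within a type holds both the other loci that segregated and the error of single arrays. The type of a line was set at 7.872 on the log2 scale, the midpoint between the mean of the Minghui 63 arrays and the mean of the Zhenshan 97 arrays for the only probe set of BGLU25 in the probe table.

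BGLU25 (gene LOC4341870, also Os6bglu25) lies on chromosome 6 and belongs to glycoside hydrolase family 1. The beta-glucosidases of this family cleave beta-linked glucose from sugar conjugates, and in plants their substrates include cell wall oligosaccharides and the glucose-bound stores of hormones and defence compounds. In an inbred line each stretch of chromosome derives from either parent, and genes that lie close together are mostly inherited together. A type set by the signal of BGLU25 therefore also sorts the lines by the parental origin of the chromosome around it, and in these lines BGLU25 itself and its linked neighbours cannot be told apart as the source of a difference.

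The BGLU25 signal, which chose the lines and is given as a description only, fell into separate ranges. Minghui 63 type lines ran between 9.16 and 10.5 on the log2 RMA scale with a median of 10.06, and Zhenshan 97 type lines between 5.57 and 7.55 with a median of 6.56. The means were 10.03 ± 0.27 in Minghui 63 type lines and 6.53 ± 0.33 in Zhenshan 97 type lines (SD over the lines of each type). No line lay in the 1.61 between the types. The lines nearest to the midpoint had 9.16, 9.24 and 9.41 above it and 7.55, 7.14 and 7.08 below it. The parental arrays had 9.83, 10.1 and 9.98 in Minghui 63, against 5.30, 6.05 and 5.999 in Zhenshan 97. Minghui 63 type lines lay on both sides of the Minghui 63 arrays, with 48 above the highest and 21 below the lowest. The Zhenshan 97 type lines did not centre on their parent, since 96 were above the highest Zhenshan 97 array and 0 were below the lowest. The difference between the type means was 3.51, against 4.18 between the parents.

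**Figure D1:**
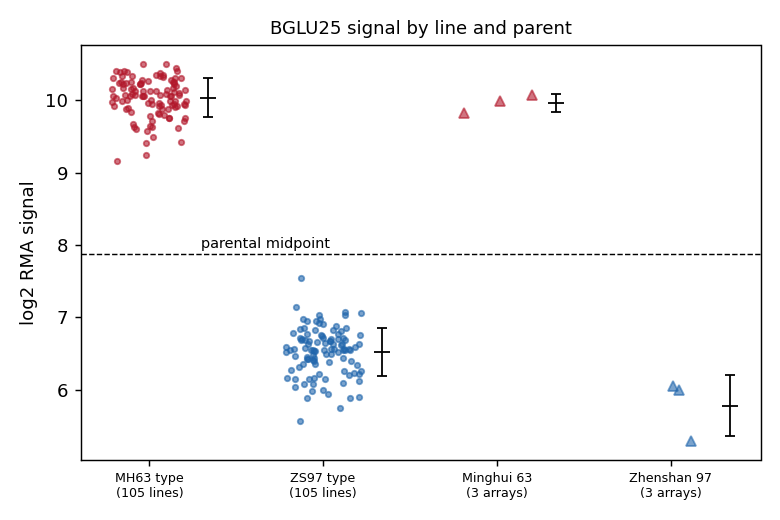
Log2 RMA signal of BGLU25 in Minghui 63 type lines, Zhenshan 97 type lines, 3 Minghui 63 arrays and 3 Zhenshan 97 arrays, with mean and SD beside each group and the midpoint as a dashed line. The types lie apart by 1.61, and most Zhenshan 97 type lines lie above the Zhenshan 97 arrays.

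Array medians were 5.16 to 5.29 in Minghui 63 type lines and 5.15 to 5.32 in Zhenshan 97 type lines. RMA brings array medians close together by design, so they do not measure array quality. The Actin control probe set for the end of the transcript minus that for its start had a median of 2.56 in both types. For Gapdh this median was 1.05 in Minghui 63 type and 1.06 in Zhenshan 97 type lines. Leaf mesophyll markers (5 probe sets for chlorophyll a-b binding proteins and the small subunit of Rubisco) had a mean signal of 11.7 to 11.99 in Minghui 63 type lines and 11.8 to 12.02 in Zhenshan 97 type lines, so leaf markers were high in all lines, although RBCS-A alone among them was near the low end of the scale (median 3.01 in Minghui 63 type and 3.01 in Zhenshan 97 type lines). The 10 floral organ MADS genes averaged 5.28 to 5.77 in Minghui 63 type lines and 5.25 to 5.87 in Zhenshan 97 type lines, and among them MADS16 was high (median 8.56 in Minghui 63 type and 8.67 in Zhenshan 97 type lines), as was MADS1 (8.38 in Minghui 63 type and 8.32 in Zhenshan 97 type lines). Secondary wall cellulose synthases CESA4, CESA7 and CESA9 averaged 4.58 to 6.47 in Minghui 63 type and 4.59 to 7.06 in Zhenshan 97 type lines, and the silicon transporters Lsi1 and Lsi2, used as root markers, 5.68 to 7.06 in Minghui 63 type and 5.95 to 7.33 in Zhenshan 97 type lines. Lsi1 was high (median 9.19 in Minghui 63 type and 9.27 in Zhenshan 97 type lines) and Lsi2 low (3.63 in both types). Of these 20 marker probe sets 0 passed limma's test between types, beside 0.258% called over all probe sets. An unadjusted p under 0.05 was reached by 0 of the 20, beside 3186 of the 57257 over all probe sets. A lower amount of a cell type and less RNA per cell cannot be told apart in whole leaves.

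Of the 57257 other probe sets, 0.258% differed between the types at an adjusted p under 0.05 (limma, Benjamini-Hochberg) and are called below. In Minghui 63 type lines 0.0803% were higher and 0.178% lower. The differences were mostly small. Their absolute median was 0.22 on the log2 scale, 23 reached 0.5 and 6 reached 1, while the median difference over all probe sets was -0.0013. By place, 58 of them belonged to genes on chromosome 6 (24 higher, 34 lower), 48 to genes on other chromosomes (7 higher, 41 lower), and 42 had no gene in the probe table (15 higher, 27 lower).

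Calls were most frequent on chromosome 6, where 58 of 1764 probe sets (3.29%) passed, against 48 of 20671 (0.232%) over the other 11 chromosomes, where the share on a chromosome was 0.0581% to 0.377%. On chromosome 6 the calls lay around BGLU25. Among probe sets of genes at most 100 genes away in the gene order, 21 passed (16.5% of them). The share did not fall steadily there, with 17.6% at 1 to 25 genes, 7.69% at 26 to 50 genes and 19.4% at 51 to 100 genes. Between 100 and 200 genes away 17 passed (12.4%), and between 200 and 400 genes away also 17 (6.85% of 248). Between 400 and 800 genes away 0 passed (limma, 28 with an unadjusted p under 0.05), and beyond that 3 of 1020 (0.294%). The gene order is that of the Japonica assembly ASM3414082v1, and that of the indica parents may differ. The gene table places 2642 genes before BGLU25 and 376 after it on this chromosome, so the calls ran almost to the end on the shorter side, where the last one was 323 genes after BGLU25, and reached 400 genes on the longer side.

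**Figure D2:**
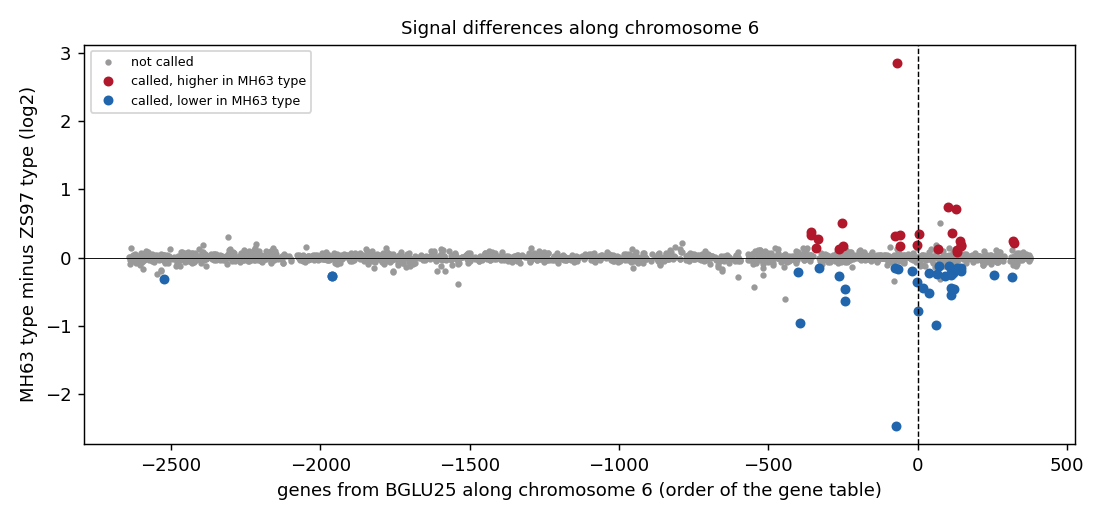
Difference between Minghui 63 type and Zhenshan 97 type lines (log2) for each of the 1764 probe sets of chromosome 6, by the number of genes between them and BGLU25 (dashed line). The called probe sets, in red where higher and blue where lower in Minghui 63 type lines, lie within 400 genes of BGLU25 except for 3.

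The probe set that followed the type of BGLU25 most closely had no gene in the table. It is described here after its values were seen, because it had the lowest p of all probe sets, and its identifier heads its panel in the plot of members by type. Its signal was 6.20, 7.26 and 8.23 (lowest, median and highest) in Minghui 63 type lines, against 4.11, 4.89 and 5.88 in Zhenshan 97 type lines. The lowest Minghui 63 type line was above the highest Zhenshan 97 type line, which held for 1 of the 57257 probe sets tested (0.00175%). The difference was 2.26 ± 0.054 (SE, limma adjusted p = 1.53e-99). Its parental arrays had 7.33, 7.55 and 7.10 in Minghui 63, against 4.77, 4.79 and 4.77 in Zhenshan 97, a difference of 2.55 (limma adjusted p = 4.5e-05). All 210 lines thus had the same parental type at this probe set as at BGLU25. Within the types no relation of its signal to that of BGLU25 was detected. Over the Minghui 63 type lines r was 0.0933 (permutation p = 0.34, rho = -0.0453 with p = 0.65) and 0.0231 once the 2 lines of most extreme BGLU25 signal were dropped, and over the Zhenshan 97 type lines r was 0.00854 (permutation p = 0.932, rho = -0.00759 with p = 0.939) and 0.00115 without such lines. The lowest adjusted p over the 4 relations computed was 0.853 (two-sided, 100000 resamples).

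Among the 12 genes on each side of BGLU25, 11 genes had a probe set (13 probe sets), and 4 of the 13 passed, beside 16.5% of all probe sets within 100 genes and 0.258% over all probe sets. LOC4341871, the next gene after BGLU25, had 6.96, 7.78 and 10.9 (lowest, median, highest) in Minghui 63 type lines, against 7.24, 8.63 and 10.9 in Zhenshan 97 type lines. The ranges overlapped widely, with 95 Minghui 63 type lines inside the range of the Zhenshan 97 type lines, and the difference was -0.78 ± 0.077 (SE, limma adjusted p = 2.46e-16). Minghui 63 had 7.44, 6.99 and 7.82, all below the 9.62, 9.73 and 8.73 of Zhenshan 97. No relation to BGLU25 was detected within types, with r = 0.0461 over Minghui 63 type lines (permutation p = 0.64, rho = -0.000231 with p = 0.998, r = 0.0746 without 2 lines) and r = 0.057 over Zhenshan 97 type lines (permutation p = 0.562, rho = 0.0352 with p = 0.718, r = 0.103 without 2 lines).

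On the other side, LOC4341869, the gene just before BGLU25, was lower in Minghui 63 type lines by a small margin. Its median was 10.9 in Minghui 63 type and 11.3 in Zhenshan 97 type lines, a difference of -0.36 ± 0.056 (SE, limma adjusted p = 1.3e-06). LOC4341868, the gene before that, was higher in Minghui 63 type lines, with medians of 4.66 in Minghui 63 type and 4.48 in Zhenshan 97 type lines and a difference of 0.19 ± 0.029 (SE, limma adjusted p = 8.84e-07). LOC4341874, 3 genes after BGLU25, rose by 0.35 ± 0.078 (SE, limma adjusted p = 0.00742) in Minghui 63 type lines. The parents went the other way for this gene, with 6.33, 5.54 and 6.79 in Minghui 63, against 6.51, 7.16 and 8.17 in Zhenshan 97. Among the 9 neighbouring probe sets that did not pass, differences ran between -0.12 and 0.14. Of these, LOC4341866 and LOC4341880 differed between the parents (1.64 and 1.61 higher in Minghui 63, limma adjusted p = 0.0305 and 0.0218) yet between the types by 0.14 and 0.003 (limma adjusted p = 0.957 and 1).

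The largest differences at named genes lay about 70 genes before BGLU25. LOC4341814, 72 genes before it, had 2.47, 3.72 and 7.05 (lowest, median, highest) in Minghui 63 type lines, against 3.44, 6.80 and 7.38 in Zhenshan 97 type lines, and the difference was -2.46 ± 0.14 (SE, limma adjusted p = 4.37e-41). Minghui 63 had 3.29, 3.76 and 3.66, against 7.02, 6.81 and 6.73 in Zhenshan 97. The lines held only these parental levels, and no line was near the midpoint. In 96 Minghui 63 type lines LOC4341814 was at the Minghui 63 level (2.47 to 4.30) and in 9 at the Zhenshan 97 level (6.44 to 7.05). In 14 Zhenshan 97 type lines it was at the Minghui 63 level (3.44 to 4.24) and in 91 at that of Zhenshan 97 (6.36 to 7.38). The difference of 2.46 is thus a mean over lines of matching and of exchanged types, and 89.05% of the 210 lines had the same type at both genes.

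LOC4341818, 4 genes nearer to BGLU25, was higher in Minghui 63 type lines. It had 4.21, 8.22 and 9.44 (lowest, median, highest) in Minghui 63 type lines, against 3.76, 4.75 and 9.19 in Zhenshan 97 type lines, a difference of 2.85 ± 0.17 (SE, limma adjusted p = 8.12e-38). The lines at odds with their type were largely those of LOC4341814. Of the 9 Minghui 63 type lines that carried the Zhenshan 97 level of LOC4341814, the median of LOC4341818 was 4.38, and in the 14 Zhenshan 97 type lines that carried its Minghui 63 level it was 8.27. The parents were less apart at this gene, with 8.38, 9.40 and 7.83 in Minghui 63, against 6.26, 5.82 and 7.56 in Zhenshan 97 (limma adjusted p = 0.0652). Most Zhenshan 97 type lines lay below all 3 Zhenshan 97 arrays, as the plot of members by type shows.

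**Figure D3:**
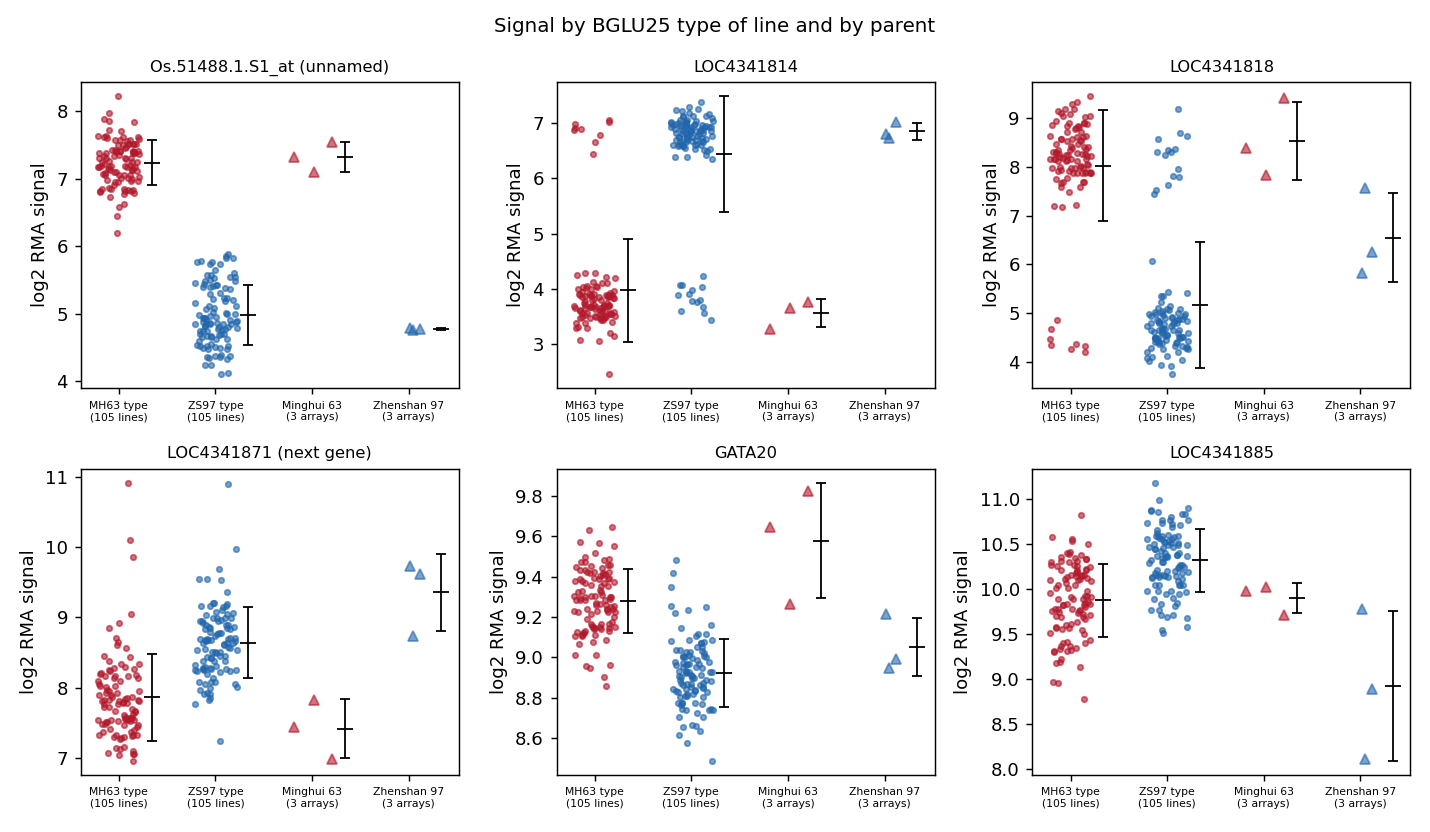
Log2 RMA signal of 6 probe sets in Minghui 63 type lines, Zhenshan 97 type lines, Minghui 63 arrays and Zhenshan 97 arrays, with mean and SD beside each group. The unnamed probe set separates the types in all lines, LOC4341814 and LOC4341818 separate them except for a small group of lines at the other level, and LOC4341871, GATA20 and LOC4341885 overlap.

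Other probe sets with no gene in the table also held parental levels, and 3 of them, chosen after their values were seen, are described. The first had medians of 2.60 in Minghui 63 type and 6.30 in Zhenshan 97 type lines (difference -2.96 ± 0.17, SE, limma adjusted p = 2.69e-40), and its parental type matched that of LOC4341814 in 210 of 210 lines. The next differed by -1.44 ± 0.084 (SE, limma adjusted p = 2.22e-38), with the type of BGLU25 in 89.05% of lines. The last had medians of 7.98 in Minghui 63 type and 5.85 in Zhenshan 97 type lines (difference 1.81 ± 0.094, SE, limma adjusted p = 2.34e-44) and matched the type of BGLU25 in 91.9% of lines. The 17 lines that did not match at this probe set and the 23 that did not match at LOC4341814 had 1 line in common.

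The called genes after BGLU25 had differences of both signs, between -0.98 (LOC4341916) and 0.74 (LOC4341948). LOC4341916, 61 genes after it, had 4.51, 5.29 and 6.94 (lowest, median, highest) in Minghui 63 type lines, against 4.74, 6.30 and 7.64 in Zhenshan 97 type lines. The difference of -0.98 ± 0.069 (SE, limma adjusted p = 7.88e-29) had the sign of the parental one (-2.53, limma adjusted p = 8e-04). LOC4341964, between 100 and 200 genes after BGLU25, rose by 0.71 ± 0.048 (SE, limma adjusted p = 5.69e-31), with medians of 7.30 in Minghui 63 type and 6.54 in Zhenshan 97 type lines. GATA20, which encodes a transcription factor with GATA and TIFY domains and lies in the same interval, had 8.86, 9.29 and 9.65 in Minghui 63 type lines, against 8.49, 8.91 and 9.48 in Zhenshan 97 type lines. Its difference of 0.36 ± 0.023 (SE, limma adjusted p = 2.02e-33) was small in size but large against the spread, and its parental arrays had 9.65, 9.82 and 9.26 in Minghui 63, against 8.99, 9.21 and 8.95 in Zhenshan 97.

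LOC4341948, 100 genes after BGLU25, rose by 0.74 ± 0.067 in Minghui 63 type lines (SE, limma adjusted p = 3.23e-19), although the Minghui 63 arrays (8.20, 8.86 and 7.91) lay among those of Zhenshan 97 (9.25, 7.05 and 9.14). LOC4341900, annotated as a pseudogene 38 genes after BGLU25, fell by 0.52 (limma adjusted p = 3.43e-18), and LOC4341958 and LOC9272377, between 100 and 200 genes after it, had differences of -0.47 and -0.44 (limma adjusted p = 3.61e-08 and 8.33e-06). LOC4341975, in the same interval, was higher by 0.25 in Minghui 63 type lines (limma adjusted p = 7.77e-13). LOC9272115, 110 genes after BGLU25, had a difference of -0.55 (limma adjusted p = 0.0457), against 0.34 between the parents. Its limma adjusted p was 0.262 once the 17 lines near the midpoint, all of Zhenshan 97 type, were left out. Its other probe sets had differences of -0.25 and -0.063 between the types (limma adjusted p = 0.0187 and 0.44). Also in this stretch, MPK4 and HMA2 are named after their values were seen. MPK4, a mitogen-activated protein kinase, had a difference of -0.22 (limma adjusted p = 3.25e-08), and HMA2, a metal-transporting ATPase that moves zinc and cadmium, of 0.11 (limma adjusted p = 0.00687). HMA2 was at the low end of the scale in all lines, with medians of 2.57 in Minghui 63 type and 2.47 in Zhenshan 97 type lines.

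Before BGLU25, LOC4341832 (60 genes away) rose by 0.33 ± 0.037 (SE, limma adjusted p = 7.61e-13). The tubulin gene TUB3, 77 genes away and named after its values were seen, gave opposite signs in its probe sets, 0.32 and -0.15 (limma adjusted p = 5.11e-12 and 0.00401), so no direction can be given for it. Between 200 and 400 genes before BGLU25, LOC4341658 rose by 0.50 ± 0.081 (SE, limma adjusted p = 3.9e-06) and LOC4341667, annotated in the study's gene list as a lysosomal Pro-x carboxypeptidase homologue, fell by 0.47 (limma adjusted p = 0.00107), with a difference of -0.64 at its other probe set.

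The most distant calls of this stretch were compared with the parental differences. HAK10, a potassium transporter 357 genes before BGLU25, rose by 0.37 ± 0.082 (SE, limma adjusted p = 0.00662), against a parental difference of 1.95. The difference was 0.32 with blocks of 10 consecutively numbered lines as a term (limma adjusted p = 0.183). LOC4341544, 393 genes before BGLU25, held levels like those of the parents, with medians of 5.54 in Minghui 63 type and 8.04 in Zhenshan 97 type lines. Its difference was -0.95 ± 0.20 (SE, limma adjusted p = 0.00239), against -3.44 between the parents, and the type matched that of BGLU25 in 65.7% of lines. LOC4341584, 335 genes before BGLU25, was higher by 0.27 in Minghui 63 type lines (limma adjusted p = 0.00126), against 1.06 between the parents. On the far side, EDR1-like and EXLA4, an expansin-like gene whose family loosens cell walls, 318 and 323 genes after BGLU25, were higher by 0.24 and 0.22 (limma adjusted p = 0.00673 and 0.0256), against 0.40 and 0.23 between the parents. With the line blocks EXLA4 had a difference of 0.19 (limma adjusted p = 0.295). LOC4341541, 400 genes before BGLU25 and named after its values were seen, had -0.20 between the types (limma adjusted p = 0.00222) and -0.12 between the parents.

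Agreement of parental type with BGLU25 could be followed along the chromosome at probe sets where the parents differed by at least 1 on the log2 scale and at most 10% of lines lay near the midpoint. Chromosome 6 had 15 such probe sets, all before BGLU25. Agreement was 89.05% at 72 genes (LOC4341814), 65.7% at 393 genes, 61.4% at 443 genes and 56.7% at 656 genes, and between 49.05% and 54.8% at the 10 probe sets from 1163 to 2394 genes. LOC4341690, between 200 and 400 genes before BGLU25, stood outside this order with 50% agreement, and 98.1% of the lines had its Minghui 63 level. On other chromosomes 281 such probe sets had 41.4% to 57.6% of lines in agreement, with a median of 50.95%. These percentages describe the lines, and the probe sets share them.

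**Figure D4:**
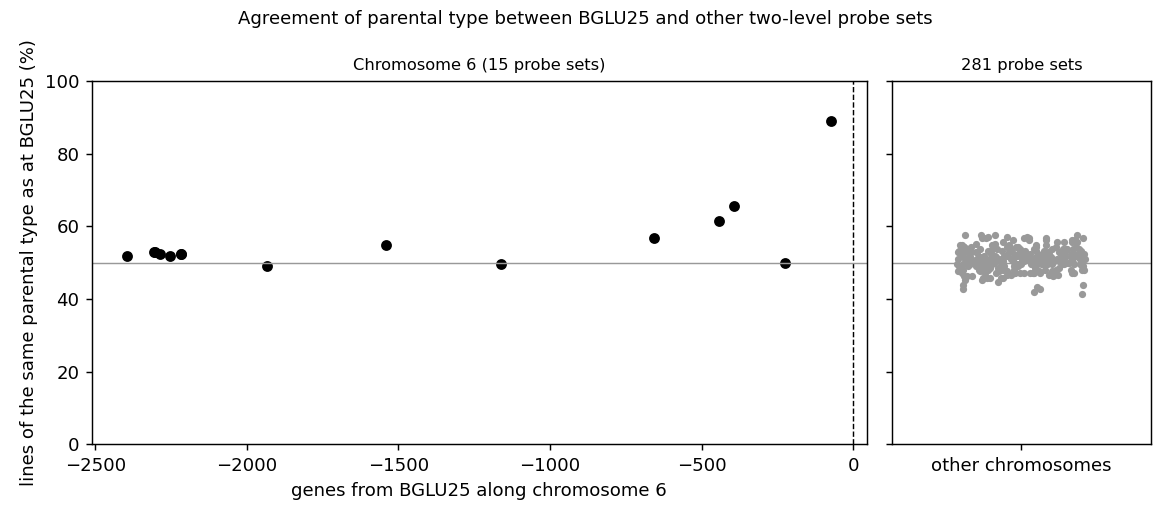
Percentage of the 210 lines whose parental type at a probe set matched that at BGLU25, by genes from BGLU25 for 15 probe sets of chromosome 6 and for 281 probe sets of other chromosomes. Agreement is 89.05% at 72 genes, at most 61.4% beyond 400 genes and 41.4% to 57.6% on other chromosomes.

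Outside the stretch around BGLU25 the differences were small. On other chromosomes 7 probe sets were higher and 41 lower in Minghui 63 type lines, in absolute size between 0.085 and 0.39, and 48 of 20671 (0.232%) is near the 0.258% over all probe sets. With blocks of 10 consecutively numbered lines as a term, 14 of these 48 remained called, against 51 of the 55 within 400 genes of BGLU25. The differences themselves were largely kept, with a median ratio to those without blocks of 0.844 on other chromosomes and 0.983 within 400 genes. The largest of these calls was LOC4343647 on chromosome 7, with medians of 8.60 in Minghui 63 type and 8.98 in Zhenshan 97 type lines and a difference of -0.39 ± 0.064 (SE, limma adjusted p = 5.39e-06, 7.86e-05 with the line blocks). LOC4343643, which lies 3 genes from it, was also lower (-0.18, limma adjusted p = 4.34e-07), and this was the only such pair within 25 genes outside chromosome 6. LOC9270258 on chromosome 5 had a difference of -0.36 (limma adjusted p = 5.39e-06), LOC4344969 on chromosome 8 of -0.35 (limma adjusted p = 0.022), LOC4327742 on chromosome 1 of -0.30 (limma adjusted p = 0.000162) and LOC4333747 on chromosome 3 of -0.27 (limma adjusted p = 0.000437). With the line blocks the call was lost at LOC4344969 (difference -0.31, limma adjusted p = 0.241) and kept at LOC9270258, LOC4327742 and LOC4333747.

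AL1 (albino leaf 1), a gene needed for chloroplast development in rice, was lower in Minghui 63 type lines at all 3 of its probe sets, with differences of -0.29, -0.27 and -0.28 (limma adjusted p = 0.00103, 0.0016 and 0.00402), but passed at none of them with the line blocks (differences of -0.22, -0.21 and -0.22, limma adjusted p = 0.143, 0.123 and 0.124). The upward calls were smaller. LOC4349740 on chromosome 11 rose by 0.16 ± 0.034, LOC4324100 on chromosome 1 by 0.14 ± 0.036, DOF4, a Dof-domain transcription factor on chromosome 2, by 0.11 ± 0.027 and LOC4347628 on chromosome 9 by 0.085 ± 0.018 (SE, limma adjusted p = 0.00575, 0.0392, 0.0296 and 0.00242), and with the line blocks none of the 4 probe sets passed, at differences of 0.12, 0.11, 0.091 and 0.060.

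On chromosome 6 itself, calls farther than 400 genes away came from 2 genes on the far side of the chromosome, both named after their values were seen. A chaperonin gene 1962 genes before BGLU25, whose product folds proteins, had a difference of -0.27 at each of its 2 probe sets (limma adjusted p = 0.000153 and 0.000878). With the line blocks both stayed called, at differences of -0.25 and -0.26 (limma adjusted p = 0.00581 and 0.00898). LOC4339930, 2524 genes before BGLU25, had a difference of -0.32 (limma adjusted p = 0.0142, and 0.94 with the line blocks).

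The other beta-glucosidases had differences between -0.086 (BGLU9) and 0.12 (BGLU6) in Minghui 63 type against Zhenshan 97 type lines. Of 26 members with a probe set, 0 rose and 0 fell (limma, 2 with an unadjusted p under 0.05), which at 0.258% called over all probe sets says nothing particular of the family, with a median of 0.0077, beside -0.0013 over all probe sets. BGLU22, the member with the highest signal, had medians of 12.06 in Minghui 63 type and 12.03 in Zhenshan 97 type lines. BGLU16, BGLU6 and BGLU36 differed between the parents (1.86, 1.14 and 0.83 higher in Minghui 63, limma adjusted p = 0.00317, 0.0194 and 0.0258), against 0.074, 0.12 and -0.034 between the types. The other lists held 1 call in all, and at 0.258% over all probe sets their counts show nothing particular either. Among 72 probe sets for cell wall glucan enzymes and expansins 1 rose and 0 fell (limma, 2 with an unadjusted p under 0.05). The call was EXLA4 of the stretch around BGLU25, lost with the line blocks, and the list had a median difference of 0.0035. For 15 phenylpropanoid and lignin enzymes (median 0.0035), 11 pathogenesis-related proteins and chitinases (0.013), 41 jasmonate, salicylate and abscisic acid genes (0.0047), 23 heat shock proteins (-0.019), 10 flowering genes (0.032) and 1 NB-LRR resistance gene (0.0015), 0 members were called in either direction by limma. An unadjusted p under 0.05 was reached by 2 of the phenylpropanoid and lignin enzymes, 1 of the pathogenesis-related proteins and chitinases and 3 of the heat shock proteins, and by 0 of the hormone, flowering and NB-LRR genes. Over all 57257 probe sets 3186 had an unadjusted p under 0.05. No UDP-glycosyltransferase could be matched by name.

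The parents were set beside the lines as a separate comparison. Between Minghui 63 and Zhenshan 97, 3042 probe sets (5.31%) differed (limma, Benjamini-Hochberg), 1636 of them higher in Minghui 63. Of the probe sets called between types, 79.7% had the sign of the parental difference, against 52.5% of the 57109 not called. The share was 91.3% for the 23 with a difference of at least 0.5, and 21 of the calls were also called between the parents, all 21 with the same sign. This share of equal signs was 75% for the 48 calls on other chromosomes and 85.7% for the 42 with no gene in the table. Within 200 genes of BGLU25 it was 68.4%. There 26 of the 38 called probe sets had the sign of the parental arrays, and for the other 12 the sign differed. Some of these 12 share a gene, and TUB3 had 1 called probe set of each kind. LOC4341885, 17 genes after BGLU25, was 1 of these, with 8.78, 9.89 and 10.8 (lowest, median, highest) in Minghui 63 type lines, against 9.50, 10.4 and 11.2 in Zhenshan 97 type lines (difference -0.44 ± 0.052, SE, limma adjusted p = 6.36e-12). Minghui 63 had 9.97, 9.71 and 10.02, against 8.89, 9.77 and 8.10 in Zhenshan 97. For 4 probe sets, all within 200 genes of BGLU25, the signs were opposite and the parental difference itself differed from that between types in 1 fit over all arrays, in which 7.73% of all probe sets passed. The error in that fit came mostly from the lines and does not measure the spread of the parental arrays.

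**Figure D5:**
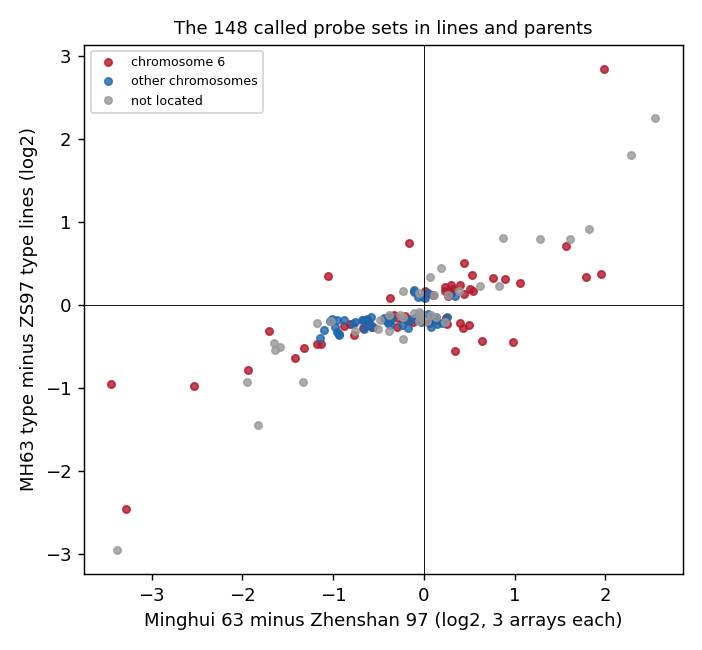
Difference between Minghui 63 type and Zhenshan 97 type lines against the difference between Minghui 63 and Zhenshan 97 (both log2) for all called probe sets, by place in the genome. Of the points, 79.7% lie in the quadrants of equal sign, and the calls on other chromosomes lie within 0.39 of 0 between types.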

How the data were processed

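Flag leaf RNA of 210 RILs (1 array each) and of the parents (3 each) had been hybridized to the GeneChip Rice Genome Array. The deposited values are on a log2 scale, 1 for each probe set, and per the labels the authors obtained them with RMA in the affy package (versions: not given in the sources used here). Nothing was renormalized. The number of arrays limits the precision.

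Lines were grouped at the midpoint of the parental means for BGLU25, and that probe set and 123 control probe sets were left out of the tests. Types, and separately the parents, were tested by two-sided linear models over 57257 probe sets at an adjusted p of 0.05 (limma 3.58.1, eBayes with a mean trend, R 4.3.3). The types held 105 lines each, and the test called 148 probe sets between them, 46 higher and 102 lower in Minghui 63 type lines. Parental and type differences were compared in 1 fit over all arrays, with 1 error per probe set shared by lines and parents. A probe set was near a midpoint when within 0.25 of the parental difference of it. Correlations used Python 3.11.15 and scipy 1.17.1. The fits were tested on simulated data.

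Gene names came from the table of the array's probe sets, where 22436 probe sets have 1 gene, 95 several and 34727 none. Chromosomes and gene order are those of assembly ASM3414082v1, and no coordinate is given. No probe sequence was used, so a change in transcript level and a sequence difference under a probe cannot be told apart. Named genes were read from the probe set with the highest mean over the lines and are the 12 largest calls in each direction, the 6 largest on other chromosomes, called genes among 12 neighbours on each side, and called list members (at most 4 a list, all for beta-glucosidases). Lines, lists and rule were chosen with earlier results of these data known. Lists were matched by gene name, except that Ghd7 and Hd1 were entered by the probe sets the study used. A gene that carries MADS2 as an older name was kept out of the floral organ genes. Alternatives covered the trend, a signal filter, quantile normalization, 5 principal components, blocks of 10 lines by number, lines near the midpoint, BGLU25 as a continuous regressor, medians and left-out parental arrays.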

Additional observations from a re-analysis of the deposited data

Results flagged for a closer look

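For 4 probe sets on chromosome 6 the difference between types and the parental difference had opposite signs, and the gap between the differences itself passed the test (limma, 1 fit over all arrays, in which 7.73% of all probe sets did so). The parental difference minus the type difference was 1.42 for LOC4341885 (limma adjusted p = 0.000866), -1.41 for LOC4341874 (limma adjusted p = 0.0425), 0.61 for LOC4341899 (limma adjusted p = 0.0143) and -0.46 for LOC4341968 (limma adjusted p = 0.00723). LOC4341899, 37 genes after BGLU25, had a difference of -0.22 between Minghui 63 type and Zhenshan 97 type lines and 0.39 between the parents, and LOC4341968, between 100 and 200 genes after it, 0.085 between types and -0.37 between the parents. Each parental value rests on 3 arrays, and none of the 4 parental differences passed the test by itself. The error in this fit came mostly from the lines, so these adjusted p do not measure the spread of the parental arrays. For LOC4341885 the SD was 0.17 over the Minghui 63 and 0.83 over the Zhenshan 97 arrays. Over Minghui 63 type and Zhenshan 97 type lines it was 0.40 and 0.35.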

How the results depend on the processing

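All 6 cuts without a parental replicate, and a cut in the widest gap, fell between 7.80 and 8.35, where no line lay. They gave the same types, with 50% of the lines of Minghui 63 type, so the calls could not change. These were 0.258% of all probe sets, 0.0803% higher and 0.178% lower. With 5 principal components as covariates 0.4% were called (0.129% higher, 0.271% lower in Minghui 63 type lines). Blocks of 10 consecutively numbered lines left 0.183% called, with 0.115% lower, and 97 of these probe sets were among those called without blocks. Requiring a difference of at least 1 as well left 0.0105%, with 0.00524% in each direction. The other settings gave between 0.236% and 0.295% of all probe sets. The 0.236% came from the signal filter, which tested only probe sets at or above the median signal. Its share of the probe sets it tested was therefore higher. The causes were not tested. For the 34 named probe sets no setting reversed a sign. Blocks of lines ended 8 of their calls, BGLU25 as a continuous regressor 2, and leaving out lines near the midpoint and the principal components 1 each. The difference of medians was -2.50 for LOC4341544, against -0.95 for the means. Between the parents 5.31% were called, and leaving out 1 array gave between 2.7% (without Minghui 63 replicate 1) and 5.97% (without Zhenshan 97 replicate 2), with 3.4% without Zhenshan 97 replicate 1 and 3.23% without Zhenshan 97 replicate 3. The labels share replicate numbers only, arrays of the same number did not deviate together (correlations -0.202, -0.26 and -0.0706), and the replicate block gave 4.03%. With 3 arrays a parent, a parental difference that was not called may be real.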
